A study of Homo sapiens with 45 samples.

Results

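Basal A and basal B are 2 expression classes of triple-negative and related breast cancer cell lines, and the 14 lines of these classes in the series were compared here. The basal A lines were BT-20, HCC1143, HCC1187, HCC1806, HCC1937, HCC70 and MDA-MB-468. The basal B lines were BT-549, HCC1395, HCC38, Hs578T, MDA-MB-157, MDA-MB-231 and MDA-MB-436. They are 14 of 15 lines and 42 of 45 libraries in all, and the luminal line MDA-MB-453 was left out. The class of each line was taken from its published classification and not from the deposited labels, which describe every line alike as wild-type epithelial breast cancer cells. The published classes were drawn from expression in other samples of the same lines, so a difference in class-defining genes is not an independent discovery. The cultures were untreated. Each line is 1 tumour-derived culture with 3 libraries of total RNA depleted of ribosomal RNA. Levels are given as CPM, the counts of a gene per 1000000 counts in a line's 3 summed libraries. The label of epithelial cells was checked against CDH1, the gene of E-cadherin, which was at 58.8 to 729.7 CPM in the basal A lines and 264 in HCC38, and at most 1.51 in the other 6 basal B lines.

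Basal A lines are known for an epithelial phenotype with keratins and cell-cell junctions, and basal B lines for a mesenchymal phenotype with vimentin, matrix genes and an invasive habit. Epithelial cells hold together through adherens junctions, tight junctions and desmosomes, and their genes are maintained by transcription factors such as the grainyhead-like and ETS families. In epithelial-mesenchymal transition, ZEB, SNAI and TWIST factors repress those genes, several of them by binding E-box sequences in promoters. The microRNAs of the miR-200 family and ZEB1 repress each other.

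Growth medium and sequencing run were spread unevenly over the classes. In RPMI were 5 basal A lines (HCC1143, HCC1187, HCC1806, HCC1937 and HCC70) and 3 basal B lines (BT-549, HCC1395 and HCC38). In L-15, a medium with galactose and pyruvate in place of glucose, were 1 basal A line (MDA-MB-468) and 3 basal B lines (MDA-MB-157, MDA-MB-231 and MDA-MB-436). BT-20 grew in EMEM and Hs578T in DMEM. Runs 1 and 2 held HCC1143 of basal A and HCC38, Hs578T and MDA-MB-231 of basal B, and runs 3 to 5 held the other 6 basal A and 4 basal B lines. Insulin was added for BT-20 of basal A and for BT-549 and MDA-MB-436 of basal B.

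The 42 libraries held 2312138 to 14653677 counts (median 6303138). Summed over its 3 libraries, a basal A line held 15899238 to 33431881 counts and a basal B line 14692305 to 25047986 counts. Total counts (p = 0.331), the number of detected genes (p = 0.132) and the share of mitochondrial transcripts (p = 0.14) gave these unadjusted values in an exact two-sided permutation test over 3432 splits of the lines. The 100 highest genes of a line took 16.2% ± 0.727 (SD, n = 7) of the counts in basal A lines and 17.2% ± 0.836 (SD, n = 7) in basal B lines, with an exact permutation p of 0.0402 before and 0.161 after adjustment over the 4 measures. CPM were scaled by TMM, which corrects for differences in RNA composition. They are not divided by gene length and do not rank genes against each other. The labels do not say whether the 3 libraries of a line came from separate cultures, and the line was the unit of every test. In bulk RNA, fewer cells of a type and less RNA per cell cannot be told apart.

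The first question was how far the transcriptomes of the 2 classes differ. Genes called higher in basal A included the epithelial transcription factors GRHL1 and ELF3, the adhesion genes NECTIN1 and NECTIN4 and the keratin KRT5. Genes called lower included ZEB1 and ZEB2, the smooth muscle actin ACTA2 and the fibrillin FBN1. Over 19036 tested genes, edgeR called 230 genes higher and 180 genes lower in basal A at an adjusted p under 0.05. That is 2.15% of the genes tested, with 1.21% higher and 0.946% lower. At these shares a short gene list would hold few calls or none, so a list without a call is no finding about it. DESeq2 called 971 higher and 741 lower of the same genes, and limma-voom 323 and 176. The median log2 fold change was 3.13 for the genes called higher, -3.38 for the genes called lower and 0.01 for all tested genes. Without adjustment, 1821 genes were higher and 1478 lower at p under 0.05. The smallest adjusted p of any gene was 0.00507.

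Few genes separated every line of one class from every line of the other. In 75 genes (0.394%) the lowest basal A line lay above the highest basal B line, and in 51 genes (0.268%) the highest basal A line lay below the lowest basal B line, together 0.662% of the genes tested. Of the called genes, 58 of 230 higher and 37 of 180 lower ones had no overlap. Lines of a class varied more than libraries of a line: the median SD of log2 CPM was 0.78 between basal A lines and 0.74 between basal B lines, against 0.29 between the 3 libraries of a line. On simulated data of the same size and spread over 19036 genes, the test recovered 83 of 100 genes with a log2 fold change of 4 and 28 of 100 with a log2 fold change of 2, and called 0 unchanged genes. A gene was tested only where at least 7 lines held enough counts, so a gene high in a few lines of one class could be left out.

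**Figure D1:**
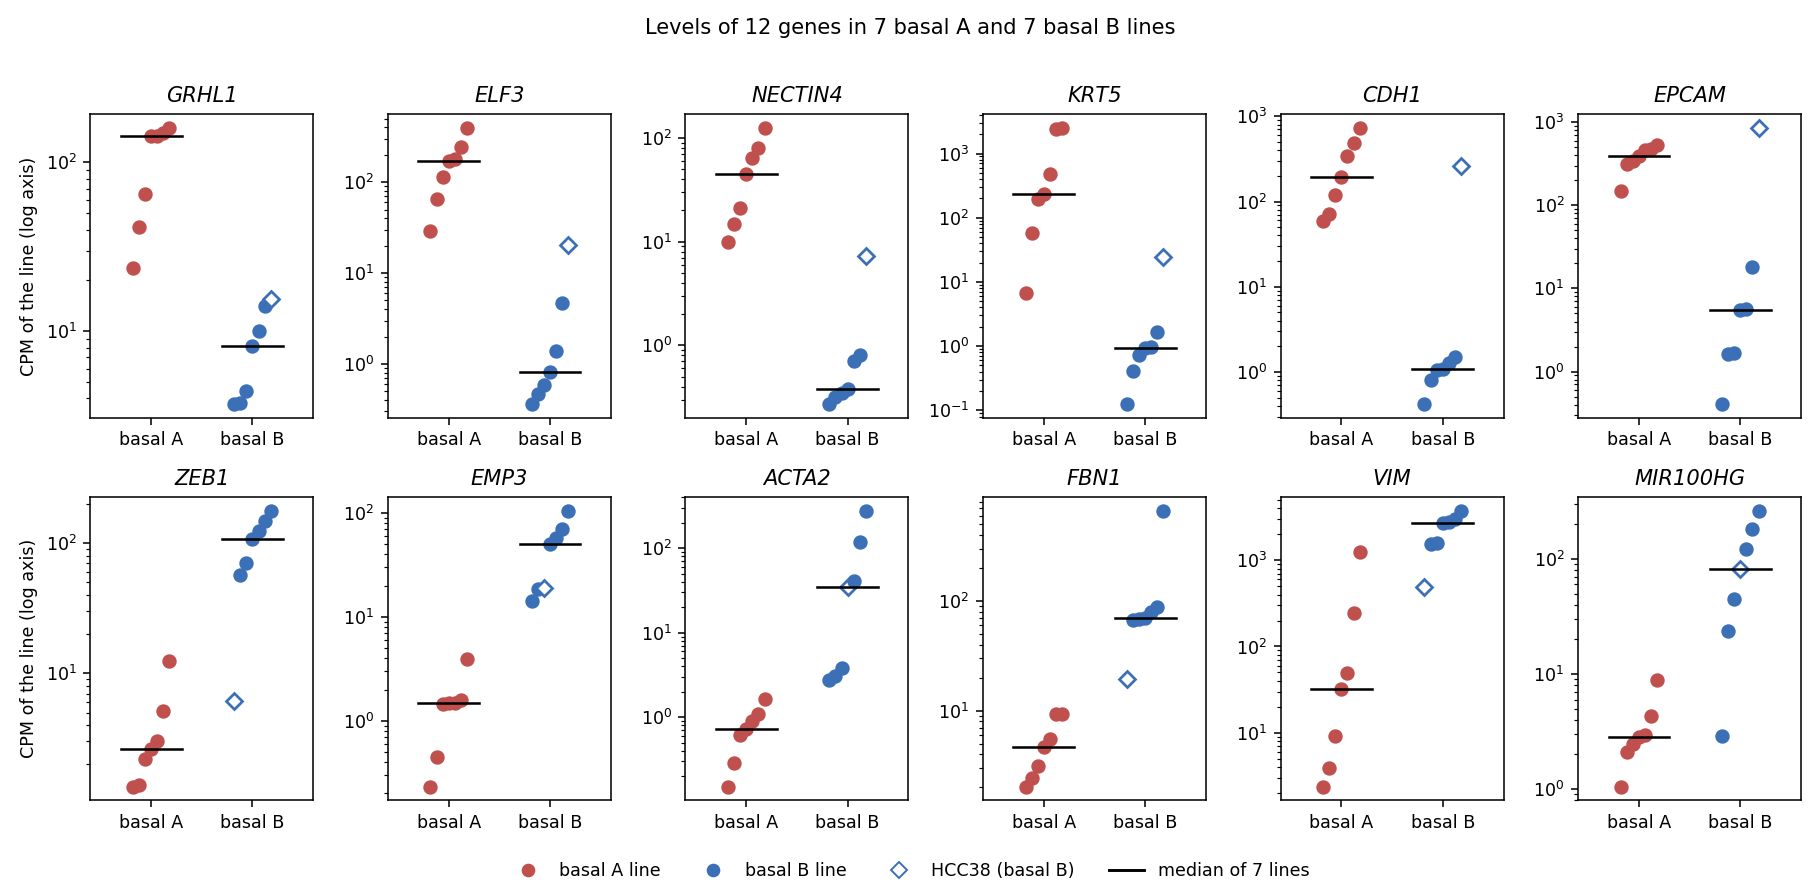
Level of 12 genes in each line, as CPM on a log axis, with 7 basal A lines on the left and 7 basal B lines on the right of each panel. Circles are lines, the open diamond is HCC38 and the bar is the median of 7 lines. GRHL1, ELF3, NECTIN4, EMP3, ACTA2 and FBN1 did not overlap between the classes, and HCC38 lay among the basal A lines for CDH1 and above them for EPCAM.

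Of 14 tested epithelial transcription and splicing factors, edgeR called 4 higher and 0 lower, all of them transcription factors. Over all tested genes it called 1.21% higher. The median log2 fold change of the list was 3.14, beside 0.01 over all tested genes. At an unadjusted p under 0.05 edgeR gave 13 higher, and DESeq2 called 12 and limma-voom 11. GRHL1 (ENSG00000134317.17, chr2:9951693-10002277, + strand), a grainyhead-like factor of epithelial genes, stood at 23.8 to 159.9 CPM in the basal A lines (median 143) and 3.71 to 15.5 CPM in the basal B lines (median 8.12). Every basal A line was above every basal B line. The edgeR log2 fold change of basal A over basal B was 3.61 ± 0.51 (SE), with an adjusted p of 0.00884. ELF3 (ENSG00000163435.15, chr1:202007945-202017188, + strand), an ETS factor of differentiating epithelium, stood at 28.7 to 395 CPM in the basal A lines (median 171) and 0.363 to 20.4 CPM in the basal B lines (median 0.808). The classes did not overlap, although HCC38 reached 20.4 CPM and HCC1806 only 28.7 CPM. The log2 fold change of ELF3 was 5.38 ± 1.0, adjusted p = 0.0153 by edgeR.

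GRHL3, a second grainyhead-like factor with a role in the skin barrier, was low throughout. It stood at 0.854 to 8.43 CPM in the basal A lines (median 5.34) and 0.169 to 1.29 CPM in the basal B lines (median 0.589), and BT-20 at 0.854 CPM lay among the basal B lines. Its log2 fold change was 2.84 ± 0.53, adjusted p = 0.0153 by edgeR. KLF5, a zinc finger factor of proliferating epithelium, stood at 6.33 to 243 CPM in the basal A lines (median 72.4) and 3.23 to 23.2 CPM in the basal B lines (median 12.5). HCC1187 at 6.33 CPM lay inside the basal B range, and the log2 fold change was 3.02 ± 0.65, adjusted p = 0.0282 by edgeR. GRHL2, the grainyhead-like factor that maintains E-cadherin, stood at 109.7 to 294 CPM in the basal A lines (median 224) and 0.465 to 113 CPM in the basal B lines (median 1.54) and missed the threshold (adjusted p = 0.107 by edgeR). HCC38 held 113 CPM of GRHL2, and no other basal B line exceeded 2.54 CPM.

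E-box letters bound by ZEB and SNAI factors were looked up in the promoters of the called junction genes and regulators. The motif searched was CACCTG, which reads CAGGTG on the other strand, in 250 bases before and 50 bases after the gene start as given by RefSeq on GRCh38.p14. Of 27305 promoters in that table, 5625 (20.6%) held it at least 1 time. The promoters of NECTIN4, GRHL3 and ELF3 are shown as examples of genes called higher in basal A that hold the letters, which are in capitals. A match of letters is a description and no binding site. OCLN held 1 match, TJP3, LSR, GRHL1 and KLF5 held 0, and no promoter was found for NECTIN1. Promoters were at hand for 75.1% of the protein-coding genes called higher and for 73.5% of those called lower, so no share was compared between them.
ELF3 (chr1:202010337-202010636, + strand): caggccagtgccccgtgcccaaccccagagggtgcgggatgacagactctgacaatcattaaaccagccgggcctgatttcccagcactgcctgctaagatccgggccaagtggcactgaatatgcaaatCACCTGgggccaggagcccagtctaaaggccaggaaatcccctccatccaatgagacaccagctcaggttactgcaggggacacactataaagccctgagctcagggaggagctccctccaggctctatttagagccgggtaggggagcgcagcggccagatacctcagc
GRHL3 (chr1:24319107-24319406, + strand): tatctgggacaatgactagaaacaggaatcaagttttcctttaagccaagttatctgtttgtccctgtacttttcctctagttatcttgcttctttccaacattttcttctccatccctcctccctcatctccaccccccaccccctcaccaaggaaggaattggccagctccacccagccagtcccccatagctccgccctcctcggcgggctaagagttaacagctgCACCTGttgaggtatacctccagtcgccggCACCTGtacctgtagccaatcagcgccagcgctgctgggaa
NECTIN4 (chr1:161089509-161089808, - strand): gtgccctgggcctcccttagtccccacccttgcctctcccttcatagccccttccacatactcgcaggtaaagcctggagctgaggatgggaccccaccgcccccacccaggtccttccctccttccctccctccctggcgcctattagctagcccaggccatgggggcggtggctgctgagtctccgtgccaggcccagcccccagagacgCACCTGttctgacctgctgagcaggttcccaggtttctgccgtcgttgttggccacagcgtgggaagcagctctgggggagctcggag

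Of 19 tested adherens and tight junction genes, edgeR called 5 higher in basal A and 0 lower, beside 1.21% of all tested genes called higher. At an unadjusted p under 0.05 edgeR gave 14 higher, and DESeq2 called 14 and limma-voom 15. All 19 had a positive log2 fold change, with a median of 2.47. NECTIN4, a cell adhesion molecule of the immunoglobulin family, stood at 9.95 to 125 CPM in the basal A lines (median 44.6) and 0.272 to 7.33 CPM in the basal B lines (median 0.381). Among the basal B lines, HCC38 held 7.33 CPM and the other 6 lines at most 0.815 CPM. The log2 fold change of NECTIN4 was 5.13 ± 0.92, adjusted p = 0.0129 by edgeR. NECTIN1, the related adhesion molecule, stood at 3.60 to 59.0 CPM in the basal A lines (median 21.7) and 1.92 to 3.69 CPM in the basal B lines (median 3.26). Only HCC1143 at 3.60 CPM fell among the basal B lines, and the log2 fold change was 3.10 ± 0.50, adjusted p = 0.00944 by edgeR. LSR, a receptor of tricellular tight junctions, stood at 16.4 to 53.6 CPM in the basal A lines (median 23.3) and 1.01 to 14.7 CPM in the basal B lines (median 1.68) without overlap (log2 fold change 2.72 ± 0.61, adjusted p = 0.0319 by edgeR). The tight junction genes TJP3 (log2 fold change 3.48 ± 0.84) and OCLN (2.47 ± 0.60) were also called.

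CDH1, which encodes E-cadherin of adherens junctions, did not pass over the 14 lines. It stood at 58.8 to 729.7 CPM in the basal A lines (median 195) and 0.423 to 264 CPM in the basal B lines (median 1.09). The only basal B line above 1.51 CPM was HCC38, with 264 CPM, a level inside the basal A range. The log2 fold change was 2.89 ± 1.38 with all 14 lines (adjusted p = 0.292, edgeR) and 8.10 ± 0.74 without HCC38 (adjusted p = 2.93e-05, edgeR). Every line was left out in turn, but HCC38 was singled out for its levels of such genes. Values without HCC38, here and below, are therefore a description and no test of the classes. EPCAM, the epithelial cell adhesion molecule, stood at 150.0 to 538 CPM in the basal A lines (median 389) and 0.408 to 853 CPM in the basal B lines (median 5.51), and the highest line of all was HCC38. Its log2 fold change was 1.60 ± 1.27 with all lines (adjusted p = 0.553, edgeR) and 6.13 ± 0.78 without HCC38 (adjusted p = 0.000334, edgeR). The claudins CLDN4 and CLDN7 had the same arrangement, with 146 and 55.8 CPM in HCC38, but MDA-MB-231 also held 74.8 and 11.9 CPM.

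Desmosome genes passed by edgeR in 3 of 12 tested members, all higher, and the log2 fold change was positive in 12 of 12. Without adjustment edgeR gave 7 higher, and DESeq2 called 5 and limma-voom 6. PKP3, a plakophilin that anchors keratin filaments at the desmosome, stood at 30.4 to 97.2 CPM in the basal A lines (median 38.4) and 1.52 to 35.0 CPM in the basal B lines (median 3.93). HCC38 reached 35.0 CPM, above HCC1187 and MDA-MB-468, and the log2 fold change was 2.81 ± 0.65, adjusted p = 0.0354 by edgeR. PKP1, the plakophilin of stratified epithelia, stood at 0.603 to 123 CPM in the basal A lines (median 48.0) and 0 to 3.79 CPM in the basal B lines (median 0.640). BT-20 and MDA-MB-468, with 0.603 and 0.773 CPM, were as low as the basal B lines, and the log2 fold change was 5.40 ± 1.19, adjusted p = 0.0297 by edgeR. PERP, a membrane protein of desmosomes, stood at 192 to 1800.1 CPM in the basal A lines (median 604) and 34.4 to 398 CPM in the basal B lines (median 98.8) (log2 fold change 2.41 ± 0.57, adjusted p = 0.0384 by edgeR). Hemidesmosome genes, which anchor cells to the basement membrane, had 0 of 10 members called by edgeR, with 3 higher at an unadjusted p under 0.05, and DESeq2 called 1 and limma-voom 0. ITGB4, the integrin beta subunit of that structure, stood at 5.40 to 470.1 CPM in the basal A lines (median 47.2) and 0.363 to 40.7 CPM in the basal B lines (median 2.68). The spread within each class was wide: MDA-MB-231 of basal B at 40.7 CPM lay above HCC1187 of basal A at 5.40 CPM (adjusted p = 0.155 by edgeR). COL17A1, a transmembrane collagen, reached 1285 CPM in HCC1806 and at most 37.5 CPM in any other line.

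Keratin genes were called higher for 4 of 13 tested members and lower for 0. The 4 were KRT5, KRT6A, KRT6B and KRT16, the keratins of basal and activated keratinocytes. DESeq2 called 8 keratins higher and limma-voom 6, and edgeR gave 8 without adjustment. KRT5 stood at 6.69 to 2501 CPM in the basal A lines (median 232) and 0.126 to 24.7 CPM in the basal B lines (median 0.931). HCC1143 with 6.69 CPM was lower than HCC38 with 24.7 CPM, and the other lines kept apart by class (log2 fold change 7.64 ± 1.53, adjusted p = 0.0205 by edgeR). KRT6A stood at 3.42 to 2131 CPM in the basal A lines (median 7.15) and 0.126 to 1.25 CPM in the basal B lines (median 0.431) and did not overlap. KRT6B was carried by HCC1143 (1592 CPM) and HCC70 (1175 CPM), while BT-20, HCC1187 and HCC1937 held at most 0.523 CPM. KRT6A and KRT6B are near-identical copies, and how reads that align to both were counted is not given in the sources used here. KRT16 stood at 25.9 to 3556 CPM in the basal A lines (median 66.0) and 0.136 to 37.8 CPM in the basal B lines (median 1.16), with HCC38 again above 2 basal A lines. The simple-epithelium keratin KRT8 stood at 706 to 3522 CPM in the basal A lines (median 1129) and 1.77 to 616 CPM in the basal B lines (median 75.1), did not overlap and still missed the threshold (log2 fold change 3.15 ± 0.91, adjusted p = 0.0788 by edgeR). KRT14 was highest in HCC1806 (1679 CPM), and Hs578T of basal B held 115 CPM.

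Epithelial surface proteins and membrane serine proteases were called by edgeR in 6 of 17 tested members, all higher, with a median log2 fold change of 3.35. DESeq2 called 12 higher and limma-voom 15, and edgeR gave 16 without adjustment. PRSS8, a membrane serine protease also called prostasin, stood at 11.3 to 59.1 CPM in the basal A lines (median 16.5) and 0 to 5.80 CPM in the basal B lines (median 0.116). Every basal A line was above every basal B line (log2 fold change 4.54 ± 1.07, adjusted p = 0.0376 by edgeR). FXYD3, a regulator of the sodium pump, stood at 0.349 to 333 CPM in the basal A lines (median 115) and 0.0453 to 5.22 CPM in the basal B lines (median 0.404). HCC1187 at 0.349 CPM was the exception among the basal A lines, and the log2 fold change was 6.81 ± 1.26, adjusted p = 0.0153 by edgeR. CEACAM6, an adhesion molecule anchored in the membrane, was high in HCC70 (212 CPM) and at 0.755 to 11.9 CPM in the other basal A lines, against 0.136 to 0.577 CPM in the basal B lines. TMPRSS4, a transmembrane serine protease, stood at 0.930 to 102 CPM in the basal A lines (median 20.2) and 0.550 to 2.13 CPM in the basal B lines (median 1.25). AP1M2, the clathrin adaptor subunit for basolateral sorting, stood at 46.6 to 260.2 CPM in the basal A lines (median 86.9) and 0.115 to 18.7 CPM in the basal B lines (median 4.76) without overlap. EPN3, an epsin of endocytosis, was called as well (log2 fold change 3.35 ± 0.70).

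Lineage transcription factors and hormone receptors were called higher by edgeR in 3 of 16 tested members. DESeq2 called 4 higher and limma-voom 3, and edgeR gave 10 without adjustment. ESR1, which encodes the estrogen receptor, stood at 4.53 to 22.5 CPM in the basal A lines (median 10.3) and 1.06 to 3.61 CPM in the basal B lines (median 2.71). The classes did not overlap, although every level was low (log2 fold change 2.33 ± 0.44, adjusted p = 0.0158 by edgeR). FOXA1, a pioneer factor of luminal cells, stood at 3.09 to 55.0 CPM in the basal A lines (median 22.5) and 0.189 to 3.09 CPM in the basal B lines (median 1.34). HCC1143, HCC1187 and HCC1395 held near-equal levels of 3.09, 3.31 and 3.09 CPM (log2 fold change 4.08 ± 0.78, adjusted p = 0.0162 by edgeR). GATA3, a factor of luminal differentiation, stood at 0.972 to 17.8 CPM in the basal A lines (median 6.87) and 0.296 to 4.12 CPM in the basal B lines (median 0.523), with HCC1143 at 0.972 CPM among the basal B lines (log2 fold change 3.01 ± 0.71, adjusted p = 0.0382 by edgeR). TP63, the master factor of basal epithelium, rested on HCC1806 (425 CPM) and HCC1937 (18.6 CPM). The other 12 lines held 0.677 to 5.31 CPM (adjusted p = 0.0785 by edgeR). PGR, the progesterone receptor, stood at 0.816 to 3.92 CPM in the basal A lines (median 2.00) and 1.01 to 6.63 CPM in the basal B lines (median 2.83) and was not called.

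**Figure D2:**
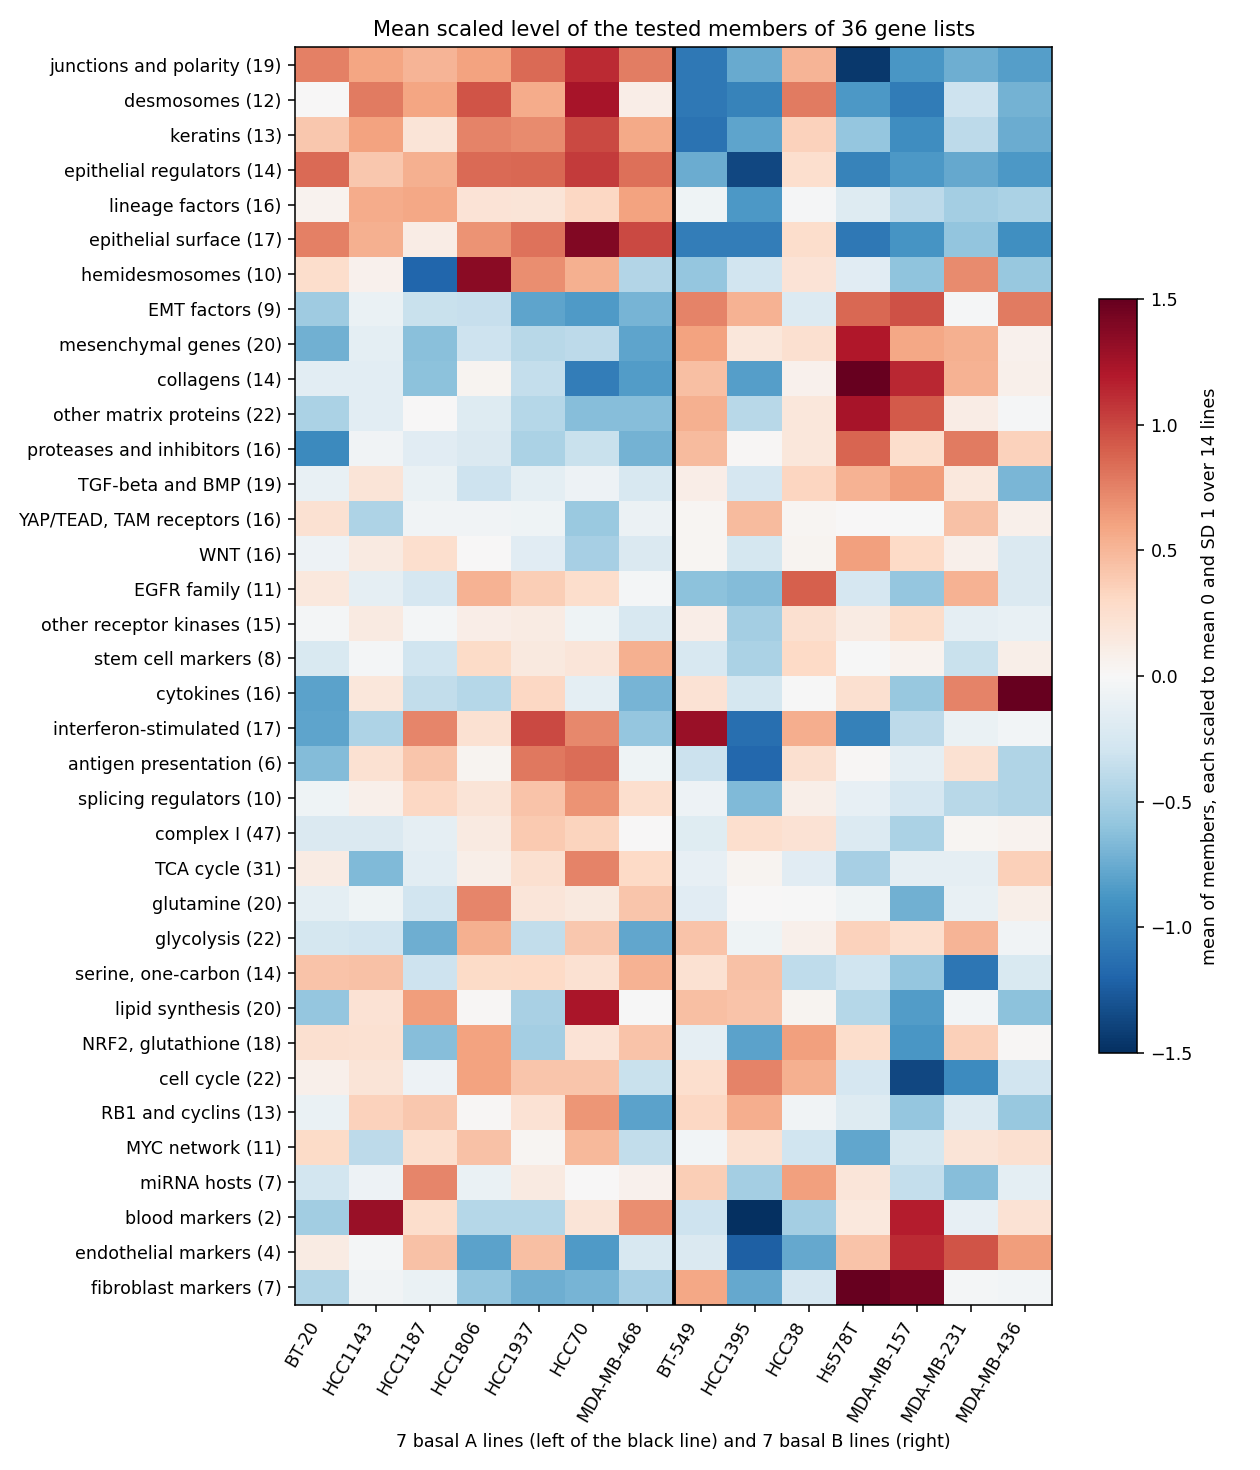
Mean scaled level of each of 36 gene lists (rows, with the number of tested members) in each line (columns), with basal A lines left of the black line and basal B lines right of it. Colours run from -1.5 (blue) to 1.5 (red), and values beyond are drawn at the end colours. The junction list was above 0 in 7 of 7 basal A lines and, among basal B lines, in HCC38, while the complex I and TCA cycle lists had both signs in both classes.

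The genes with the smallest p among those without overlap included several outside these lists. CLDN8, a claudin of tight junctions that limits ion passage, stood at 2.06 to 48.6 CPM in the basal A lines (median 19.5) and 0.0423 to 0.863 CPM in the basal B lines (median 0.136) (log2 fold change 6.61 ± 1.0, adjusted p = 0.00919 by edgeR). FRK, a tyrosine kinase of the SRC family, stood at 22.1 to 289 CPM in the basal A lines (median 68.5) and 3.26 to 17.9 CPM in the basal B lines (median 5.16) (log2 fold change 3.75 ± 0.59, adjusted p = 0.00944 by edgeR). MYO1D, an unconventional myosin, stood at 17.2 to 77.6 CPM in the basal A lines (median 58.8) and 0.761 to 11.3 CPM in the basal B lines (median 3.21) (log2 fold change 3.56 ± 0.58). The margin was narrow for FRK, between HCC1187 (22.1 CPM) and MDA-MB-157 (17.9 CPM). LIMK2, a kinase that inactivates cofilin, stood at 24.1 to 87.9 CPM in the basal A lines (median 63.9) and 7.80 to 22.1 CPM in the basal B lines (median 15.3). TSPAN13, a tetraspanin, stood at 66.4 to 638 CPM in the basal A lines (median 228) and 3.81 to 62.8 CPM in the basal B lines (median 14.5), with HCC1143 (66.4 CPM) and HCC38 (62.8 CPM) almost level. INAVA, an adaptor of innate signalling in intestinal epithelium, stood at 4.82 to 32.0 CPM in the basal A lines (median 7.99) and 0.189 to 2.11 CPM in the basal B lines (median 0.589). ERP27 (a chaperone-like protein of the endoplasmic reticulum), KIAA1211L, PRR15, the peptide transporter SLC15A2 and the lipid kinase PIK3C2B completed the 12 protein-coding genes, with log2 fold changes of 6.02 ± 0.93, 3.30 ± 0.51, 4.22 ± 0.74, 3.18 ± 0.53 and 2.30 ± 0.40 (SE).

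Long noncoding RNAs were called in 41 of 3022 tested genes (1.36%, beside 2.15% over all genes and 2.53% of protein-coding genes), 21 higher and 20 lower. ELF3-AS1, antisense to ELF3, stood at 1.83 to 14.6 CPM in the basal A lines (median 5.81) and 0.0846 to 1.44 CPM in the basal B lines (median 0.189) (log2 fold change 3.96 ± 0.70, adjusted p = 0.0129 by edgeR). The strand setting of the counting is not given in the sources used here, so reads of ELF3 and ELF3-AS1 cannot be told apart where the genes overlap, and the same holds for TMEM51-AS1 (log2 fold change 2.89 ± 0.59). AC010503.4 stood at 1.54 to 7.03 CPM in the basal A lines (median 5.34) and 0 to 1.15 CPM in the basal B lines (median 0.0629). Lower in basal A was LINC-PINT, a p53-induced noncoding RNA, at 1.74 to 5.58 CPM in the basal A lines (median 3.03) and 6.34 to 24.2 CPM in the basal B lines (median 16.0) (log2 fold change -2.32 ± 0.40, adjusted p = 0.0115 by edgeR). LINC02454 and AC092807.3 were lower without overlap at log2 fold changes of -3.83 ± 0.59 and -3.31 ± 0.53 (SE).

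Of 9 tested transcription factors of epithelial-mesenchymal transition, edgeR called 3 lower in basal A and 0 higher, with a negative log2 fold change in 9 of 9. DESeq2 called 5 lower and limma-voom 3, and edgeR gave 6 without adjustment. ZEB1 (ENSG00000148516.21, chr10:31318495-31529814, + strand), the zinc finger repressor of epithelial genes, stood at 1.35 to 12.4 CPM in the basal A lines (median 2.60) and 6.09 to 178 CPM in the basal B lines (median 108). HCC38 at 6.09 CPM lay below HCC1143 at 12.4 CPM, and the other 6 basal B lines lay between 56.6 and 178 CPM. The log2 fold change of ZEB1 was -4.61 ± 0.69, adjusted p = 0.00919 by edgeR. ZEB2, its paralog, stood at 1.55 to 5.83 CPM in the basal A lines (median 3.87) and 2.92 to 114 CPM in the basal B lines (median 47.1), and HCC38 was again the exception at 2.92 CPM (log2 fold change -3.82 ± 0.61, adjusted p = 0.00944 by edgeR). PRRX1, a homeobox factor of mesenchyme, stood at 0.466 to 7.38 CPM in the basal A lines (median 0.904) and 1.63 to 155 CPM in the basal B lines (median 49.0), with HCC38 (1.63 CPM) and MDA-MB-231 (2.89 CPM) inside the basal A range (log2 fold change -4.65 ± 1.01, adjusted p = 0.0286 by edgeR). TWIST1 stood at 0.155 to 12.9 CPM in the basal A lines (median 0.670) and 0.503 to 58.6 CPM in the basal B lines (median 35.2) and SNAI2 at 0.206 to 37.3 CPM in the basal A lines (median 10.5) and 0.550 to 121 CPM in the basal B lines (median 18.5). Neither was called, and SNAI2 reached 37.3 CPM in the basal A line HCC1806.

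Mesenchymal cytoskeleton and adhesion genes were called lower by edgeR in 4 of 20 tested members and higher in 0. DESeq2 called 9 lower and limma-voom 5, and edgeR gave 10 without adjustment. EMP3, a membrane protein of mesenchymal cells, stood at 0.232 to 3.94 CPM in the basal A lines (median 1.49) and 14.4 to 105 CPM in the basal B lines (median 50.1). It did not overlap, and with an adjusted p of 0.00507 by edgeR it shared the smallest adjusted p of all genes (log2 fold change -4.97 ± 0.66). ACTA2, the smooth muscle actin, stood at 0.151 to 1.65 CPM in the basal A lines (median 0.721) and 2.78 to 277 CPM in the basal B lines (median 34.8) without overlap (log2 fold change -6.45 ± 1.11, adjusted p = 0.0115 by edgeR). AKAP12, a scaffold protein for kinase A, stood at 0.155 to 29.9 CPM in the basal A lines (median 5.83) and 63.5 to 849 CPM in the basal B lines (median 162) (log2 fold change -4.82 ± 0.88, adjusted p = 0.0139 by edgeR). TAGLN, an actin-binding protein of contractile cells, stood at 0.962 to 7.69 CPM in the basal A lines (median 3.61) and 1.65 to 359.8 CPM in the basal B lines (median 7.80), and only BT-549, Hs578T and MDA-MB-157 lay far above the basal A range.

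VIM, the intermediate filament vimentin, was not called. It stood at 2.36 to 1256 CPM in the basal A lines (median 32.2) and 493 to 3760.0 CPM in the basal B lines (median 2742). HCC1143 of basal A held 1256 CPM and HCC1187 243 CPM, and HCC1143 lay above HCC38 of basal B at 493 CPM. The log2 fold change was -3.33 ± 1.14 with all lines (adjusted p = 0.138, edgeR) and -3.46 ± 1.18 without HCC38 (adjusted p = 0.118, edgeR). CDH2, which encodes N-cadherin, stood at 0.427 to 132 CPM in the basal A lines (median 1.18) and 4.65 to 413 CPM in the basal B lines (median 92.4), and HCC1187 at 132 CPM was above 5 basal B lines.

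Of 14 collagen genes 3 were called lower and 0 higher, all 14 had a negative log2 fold change, and of 22 other matrix genes 4 were lower and 1 was higher. For collagens DESeq2 called 7 lower and limma-voom 0, and for the other matrix genes they called 10 and 2 lower and 1 higher each. FBN1 (ENSG00000166147.13, chr15:48408306-48645849, - strand), the fibrillin of elastic microfibrils, stood at 2.02 to 9.26 CPM in the basal A lines (median 4.67) and 19.4 to 666 CPM in the basal B lines (median 69.3). It did not overlap (log2 fold change -4.87 ± 0.75, adjusted p = 0.00919 by edgeR). FN1, which encodes fibronectin, stood at 3.41 to 111 CPM in the basal A lines (median 20.5) and 60.1 to 3434 CPM in the basal B lines (median 277), with BT-20 at 111 CPM above HCC1395 at 60.1 CPM (log2 fold change -4.77 ± 1.05, adjusted p = 0.0299 by edgeR). The fibrillar collagens were carried by few lines. COL1A2 held 329 CPM in BT-549 and 1794 CPM in Hs578T, and the other 5 basal B lines held 1.23 to 6.16 CPM, near the basal A range of 0.466 to 2.56 CPM. COL3A1 was high in Hs578T (1082 CPM) and MDA-MB-157 (1346 CPM). POSTN, the matrix protein periostin, reached 7894 CPM in Hs578T and at most 18.7 CPM elsewhere (log2 fold change -9.01 ± 2.27, adjusted p = 0.0489 by edgeR). SPARC, a collagen-binding glycoprotein, was high in Hs578T and MDA-MB-157 (1992 and 3965 CPM). COL8A1 stood at 0.769 to 4.06 CPM in the basal A lines (median 1.13) and 0.507 to 374 CPM in the basal B lines (median 12.7). The exception was FBLN1, the matrix protein fibulin-1, which was higher in basal A at 14.6 to 49.2 CPM in the basal A lines (median 31.4) and 2.04 to 16.2 CPM in the basal B lines (median 6.60) (log2 fold change 2.15 ± 0.50, adjusted p = 0.0371 by edgeR).

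Matrix proteases and their inhibitors were called lower by edgeR in 4 of 16 tested members and higher in 0. DESeq2 called 10 lower and 1 higher and limma-voom 4 lower, and edgeR gave 10 lower and 1 higher without adjustment. TIMP1, an inhibitor of metalloproteinases, stood at 0.232 to 8.57 CPM in the basal A lines (median 5.13) and 5.85 to 153 CPM in the basal B lines (median 33.5), and MMP16, a membrane-type metalloproteinase, at 1.06 to 6.97 CPM in the basal A lines (median 2.32) and 3.45 to 67.6 CPM in the basal B lines (median 31.8). Both overlapped only through HCC38, at 5.85 and 3.45 CPM, and, for MMP16, through MDA-MB-231 at 5.60 CPM. MMP2, a gelatinase, was low in most lines and reached 20.8 CPM in Hs578T (log2 fold change -3.34 ± 0.75, adjusted p = 0.0319 by edgeR).

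**Figure D3:**
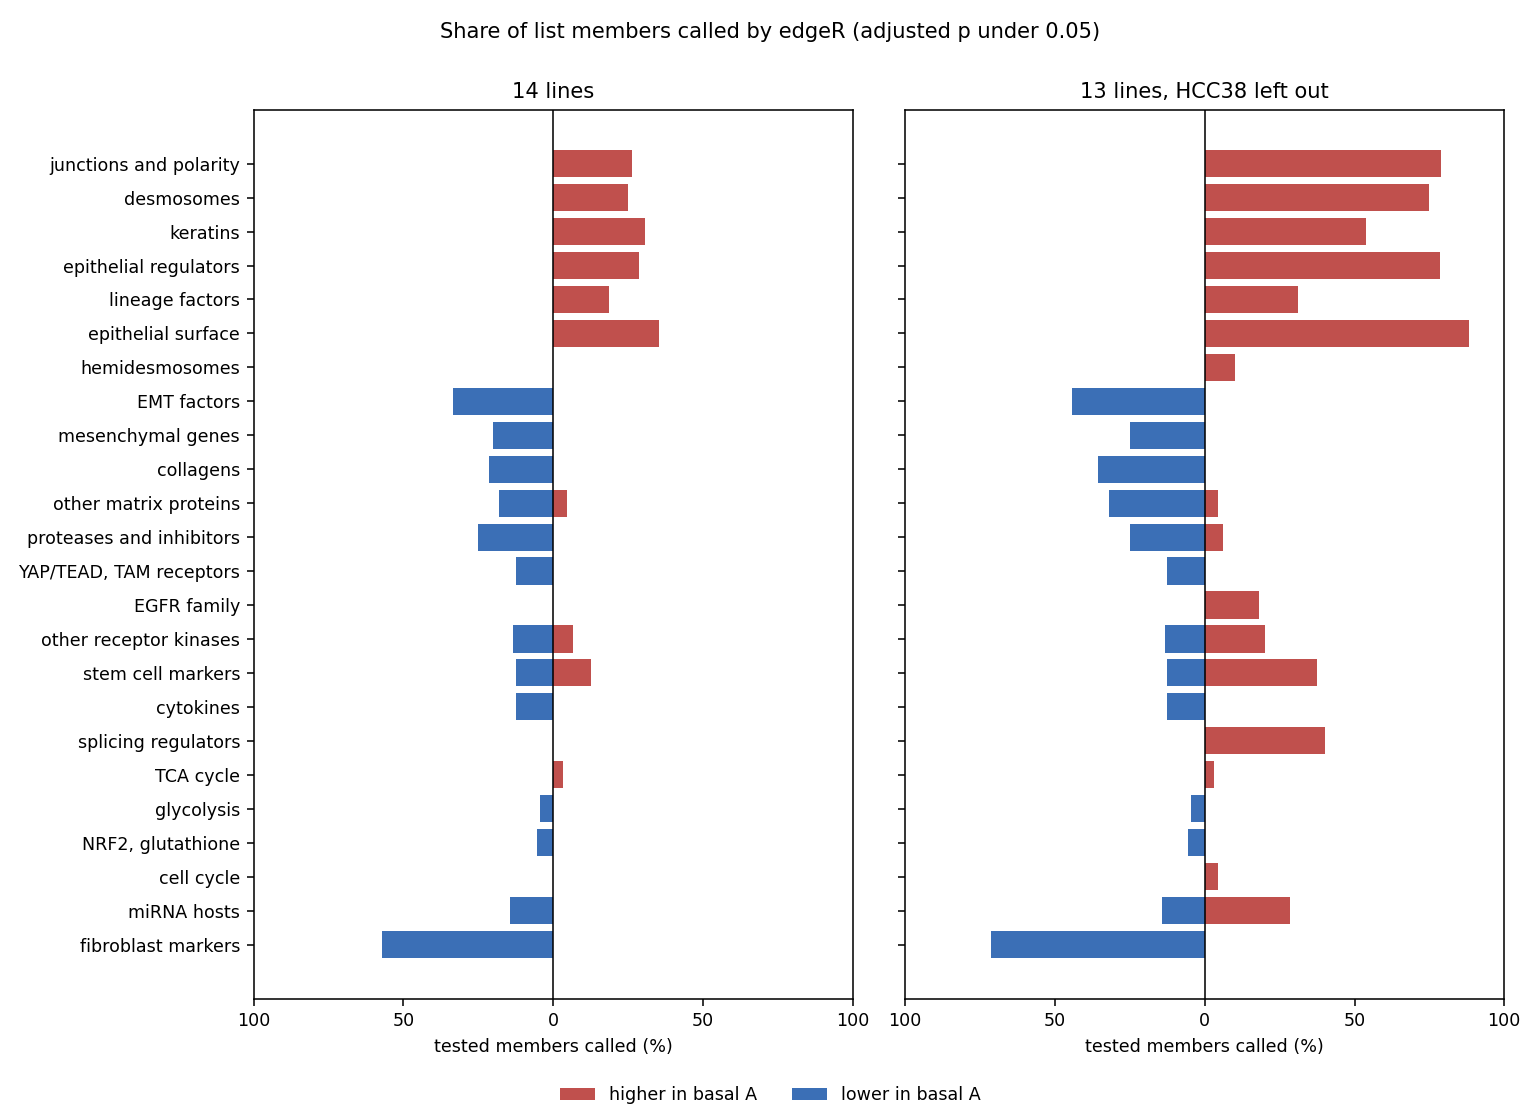
Share of the tested members of each list called higher (red, to the right) or lower (blue, to the left) in basal A by edgeR, with all 14 lines in the left panel and without HCC38 in the right panel. Lists with no call in either fit are left out. Of the junction list, 5 of 19 members were called with HCC38 in the fit and 15 of 19 without it.

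Other genes were lower in basal A without overlap. PNMA2, a neuronal antigen with a retroviral capsid-like protein, stood at 0.117 to 2.73 CPM in the basal A lines (median 0.352) and 8.39 to 121 CPM in the basal B lines (median 78.4) (log2 fold change -6.17 ± 0.80, adjusted p = 0.00507 by edgeR). GNG11, a gamma subunit of heterotrimeric G proteins, stood at 0.158 to 5.01 CPM in the basal A lines (median 0.913) and 5.32 to 175 CPM in the basal B lines (median 50.8), and HCC70 (5.01 CPM) and HCC38 (5.32 CPM) almost met (log2 fold change -5.70 ± 0.90). IL31RA, a cytokine receptor chain, stood at 0.272 to 0.824 CPM in the basal A lines (median 0.502) and 0.958 to 41.0 CPM in the basal B lines (median 14.3), with HCC38 (0.958 CPM) just above MDA-MB-468 (0.824 CPM). CFL2, a cofilin that severs actin filaments, stood at 10.1 to 55.1 CPM in the basal A lines (median 23.2) and 55.9 to 180.2 CPM in the basal B lines (median 137), with HCC1806 at 55.1 CPM and MDA-MB-436 at 55.9 CPM nearly equal. FAT4, a giant protocadherin of the Hippo pathway, stood at 1.17 to 3.80 CPM in the basal A lines (median 2.48) and 4.27 to 42.7 CPM in the basal B lines (median 16.0). ADAMTS6, a secreted metalloproteinase, stood at 0.660 to 8.89 CPM in the basal A lines (median 1.92) and 12.8 to 150.4 CPM in the basal B lines (median 68.1) (log2 fold change -4.34 ± 0.73, adjusted p = 0.0115 by edgeR).

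Of the YAP, TEAD and TAM receptor list, edgeR called 2 of 16 tested members lower. DESeq2 called 3 lower and 1 higher and limma-voom 3 lower, and edgeR gave 5 lower and 1 higher without adjustment. CYR61, a matricellular target of YAP, stood at 4.90 to 50.0 CPM in the basal A lines (median 8.92) and 78.9 to 389 CPM in the basal B lines (median 119) without overlap (log2 fold change -3.38 ± 0.60, adjusted p = 0.0129 by edgeR). MERTK, a receptor of the TAM family, stood at 0.505 to 1.94 CPM in the basal A lines (median 1.74) and 2.08 to 49.4 CPM in the basal B lines (median 7.24) (log2 fold change -3.01 ± 0.70, adjusted p = 0.0356 by edgeR). AXL, its relative, stood at 0.194 to 89.3 CPM in the basal A lines (median 1.25) and 72.5 to 498 CPM in the basal B lines (median 234) and was not called, with a log2 fold change of -4.03 ± 1.18 and an adjusted p of 0.0817 by edgeR. The basal A line HCC1937 held 89.3 CPM of AXL, between MDA-MB-436 at 85.3 CPM and BT-549 at 111 CPM. YAP1 itself stood at 66.4 to 553 CPM in the basal A lines (median 350.3) and 164 to 353 CPM in the basal B lines (median 254) (log2 fold change 0.40 ± 0.33, adjusted p = 0.574 by edgeR). TGF-beta and BMP signalling had 0 of 19 members called and WNT 0 of 16. Their smallest p belonged to INHBB, an inhibin beta chain, at 1.39 to 205 CPM in the basal A lines (median 49.7) and 0.136 to 20.0 CPM in the basal B lines (median 0.863), and to DKK3, a secreted protein of the dickkopf family, at 0 to 6.83 CPM in the basal A lines (median 0.603) and 1.45 to 156 CPM in the basal B lines (median 6.28). Without adjustment, edgeR gave 1 higher and 1 lower for TGF-beta and BMP, and 1 higher and 3 lower for WNT. DESeq2 called 1 higher gene in the TGF-beta and BMP list and 2 lower in the WNT list, and limma-voom called 0 and 1 higher.

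MicroRNA host transcripts were measured, mature microRNAs were not. Of 7 tested hosts 1 was called, MIR100HG (ENSG00000255248.7, chr11:122028327-122556721, - strand), which was lower in basal A. It stood at 1.05 to 8.82 CPM in the basal A lines (median 2.85) and 2.91 to 263 CPM in the basal B lines (median 81.7). In MDA-MB-157 it was as low as in basal A, at 2.91 CPM, and in HCC38 it was at 81.7 CPM, so HCC38 followed its class here (log2 fold change -4.87 ± 0.79, adjusted p = 0.00944 by edgeR). MIR205HG stood at 19.4 to 524 CPM in the basal A lines (median 84.2) and 0.115 to 34.7 CPM in the basal B lines (median 0.363), and HCC38 with 34.7 CPM lay inside the basal A range. Its log2 fold change was 4.95 ± 1.35 with all lines (adjusted p = 0.0647, edgeR) and 8.76 ± 0.91 without HCC38 (adjusted p = 7.96e-05, edgeR). As for CDH1, the p without HCC38 is a description. Over the 7 tested hosts, DESeq2 called 2 higher and 2 lower, and limma-voom 2 higher and 1 lower. The host of miR-200c, MIR200CHG, was not called by edgeR (log2 fold change 2.71 ± 1.01, adjusted p = 0.174). The microRNAs below are shown because their genes lie inside these 3 hosts on the same strand. Sequences are from RefSeq, and the seed (bases 2 to 8) is in capitals. The 3 microRNAs of MIR100HG have 3 different seeds.
hsa-miR-100-5p in MIR100HG: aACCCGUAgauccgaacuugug
hsa-let-7a-5p in MIR100HG: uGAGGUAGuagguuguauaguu
hsa-miR-125b-5p in MIR100HG: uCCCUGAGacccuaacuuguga
hsa-miR-205-5p in MIR205HG: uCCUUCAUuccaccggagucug
hsa-miR-200c-3p in MIR200CHG: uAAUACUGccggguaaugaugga

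Splicing regulators that set epithelial and mesenchymal isoforms had 0 of 10 members called over all lines, and 3 were higher at an unadjusted p under 0.05 by edgeR, and 3 were called higher by DESeq2 and by limma-voom. ESRP1, the epithelial splicing regulator, stood at 144 to 390.0 CPM in the basal A lines (median 207) and 0.959 to 162 CPM in the basal B lines (median 1.92). HCC38 held 162 CPM, and the other 6 basal B lines at most 2.65 CPM. Without HCC38 the log2 fold change of ESRP1 was 7.06 ± 0.43 (adjusted p = 7.44e-07, edgeR), against 3.28 ± 1.14 with it (adjusted p = 0.143, edgeR). As for CDH1, the p without HCC38 is a description. ESRP2 stood at 6.74 to 86.1 CPM in the basal A lines (median 28.8) and 0.211 to 17.1 CPM in the basal B lines (median 0.527) and RBM47, a second epithelial RNA-binding protein, at 11.8 to 231 CPM in the basal A lines (median 97.6) and 0.550 to 44.9 CPM in the basal B lines (median 2.90).

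EGFR family receptors and ligands had 0 of 11 members called, and 3 were higher and 1 lower at an unadjusted p under 0.05 by edgeR. DESeq2 called 2 higher and limma-voom 1. EGFR stood at 61.7 to 1825 CPM in the basal A lines (median 182) and 28.0 to 163 CPM in the basal B lines (median 79.9). Its 2 highest lines were MDA-MB-468 at 1825 CPM and BT-20 at 767 CPM, and the range of the other 5 basal A lines overlapped that of the basal B lines (log2 fold change 2.36 ± 0.71, adjusted p = 0.0909 by edgeR). ERBB3, the heregulin receptor, stood at 51.2 to 160.5 CPM in the basal A lines (median 69.3) and 2.02 to 51.7 CPM in the basal B lines (median 2.95), with HCC38 at 51.7 CPM between HCC1143 and HCC1937 (adjusted p = 0.0582 by edgeR). ERBB2, the gene of HER2, stood at 33.4 to 76.2 CPM in the basal A lines (median 51.1) and 15.5 to 62.6 CPM in the basal B lines (median 23.9) (log2 fold change 0.84 ± 0.33, adjusted p = 0.197 by edgeR). Among 15 other receptor kinases and ligands, edgeR called 1 higher and 2 lower. DESeq2 called 3 higher and 2 lower and limma-voom 1 of each, and edgeR gave 3 higher and 4 lower without adjustment. FGFR3, a fibroblast growth factor receptor, stood at 2.83 to 108 CPM in the basal A lines (median 10.6) and 1.31 to 6.22 CPM in the basal B lines (median 3.52) (log2 fold change 3.15 ± 0.77, adjusted p = 0.0447 by edgeR). DDR2, a collagen receptor, stood at 1.59 to 8.52 CPM in the basal A lines (median 3.22) and 3.04 to 279 CPM in the basal B lines (median 103), and HCC1395 and MDA-MB-231, with 3.04 and 7.17 CPM, stayed within the basal A range (log2 fold change -4.85 ± 0.89, adjusted p = 0.0145 by edgeR). PDGFRB, a platelet-derived growth factor receptor, was at 139.9 CPM in MDA-MB-157, 33.1 CPM in Hs578T and 6.67 CPM in MDA-MB-231, and the remaining 4 basal B lines held at most 0.911 CPM.

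Of 8 tested stem and progenitor markers, edgeR called 1 higher and 1 lower, beside 1.21% and 0.946% of all tested genes. DESeq2 called 3 higher and 2 lower and limma-voom 1 and 2, and edgeR gave 3 and 2 without adjustment. PROM1, which encodes CD133, stood at 0.673 to 401 CPM in the basal A lines (median 178) and 0.973 to 12.3 CPM in the basal B lines (median 2.31). The basal A lines fell apart, with 4 lines at 178 CPM or more and BT-20, HCC1806 and HCC1937 at 0.673 to 1.16 CPM (log2 fold change 5.48 ± 1.31, adjusted p = 0.0407 by edgeR). PROCR, the protein C receptor, stood at 1.22 to 15.1 CPM in the basal A lines (median 3.55) and 5.26 to 121 CPM in the basal B lines (median 42.3) (log2 fold change -3.12 ± 0.68, adjusted p = 0.0284 by edgeR). CD24, a surface glycoprotein, stood at 283 to 2170.4 CPM in the basal A lines (median 737) and 4.07 to 363 CPM in the basal B lines (median 9.75) (adjusted p = 0.0605 by edgeR) and CD44, the hyaluronan receptor, at 33.3 to 1209 CPM in the basal A lines (median 328) and 214 to 725 CPM in the basal B lines (median 485) (adjusted p = 0.964 by edgeR). The log2 fold change was 3.63 ± 0.97 for CD24 and 0.07 ± 0.53 for CD44. ALDH1A1, an aldehyde dehydrogenase, stood at 0.955 to 373 CPM in the basal A lines (median 18.7) and 0.634 to 9.78 CPM in the basal B lines (median 2.54) (adjusted p = 0.0508 by edgeR).

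Cytokine genes were called lower in 2 of 16 tested members by edgeR, in 5 by DESeq2 and in 0 by limma-voom. CXCL2, a neutrophil chemokine, stood at 0.174 to 4.08 CPM in the basal A lines (median 1.89) and 2.33 to 133 CPM in the basal B lines (median 12.7), with HCC1395 and MDA-MB-436 far above the rest at 127 and 133 CPM (log2 fold change -4.60 ± 1.05, adjusted p = 0.0332 by edgeR). CXCL3, a close paralog, stood at 0.101 to 1.01 CPM in the basal A lines (median 0.709) and 0.677 to 49.8 CPM in the basal B lines (median 4.56), and reads shared between the 2 chemokine genes cannot be told apart (log2 fold change -3.82 ± 0.95, adjusted p = 0.0465 by edgeR). CXCL8, which encodes interleukin-8, stood at 2.67 to 68.8 CPM in the basal A lines (median 8.12) and 0.169 to 1313 CPM in the basal B lines (median 83.5) and was not called. HCC1395 and MDA-MB-157 of basal B held 0.169 and 5.76 CPM. Interferon-stimulated genes had 0 of 17 members called by edgeR, DESeq2 or limma-voom, with 0 at an unadjusted p under 0.05 by edgeR. BST2, an antiviral tether, stood at 5.94 to 239.9 CPM in the basal A lines (median 109) and 0.346 to 119.8 CPM in the basal B lines (median 34.1), and the range within each class was far wider than the distance between their medians. OAS1, a sensor of double-stranded RNA, stood at 2.80 to 56.8 CPM in the basal A lines (median 35.7) and 0.550 to 69.0 CPM in the basal B lines (median 1.82). Of 17 antigen presentation genes, 11 were too low in this count table to be tested and 0 of the other 6 were called by edgeR, DESeq2 or limma-voom, with 0 at an unadjusted p under 0.05 by edgeR. CD74, the invariant chain of class II molecules, reached 237 CPM in HCC1143 of basal A and 32.8 CPM in MDA-MB-231 of basal B.

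The title of the series concerns complex I, glutamine use and the TCA cycle, and few genes of these lists were called. Over all 19036 tested genes edgeR called 2.15%, so lists of this size would hold few calls at that share. The low counts are therefore no finding about these lists. At an unadjusted p under 0.05, edgeR gave 1821 higher and 1478 lower over all tested genes. DESeq2 called 971 higher and 741 lower of them, and limma-voom 323 and 176. Of 47 tested complex I subunits and assembly factors, 0 were called and 1 was lower at an unadjusted p under 0.05 by edgeR, while DESeq2 called 1 lower and limma-voom 0. The list had a median log2 fold change of 0.08. NDUFAF2, an assembly factor, had the smallest p of the list and stood at 20.1 to 74.7 CPM in the basal A lines (median 36.8) and 40.0 to 181 CPM in the basal B lines (median 75.5) (log2 fold change -1.13 ± 0.38, adjusted p = 0.127 by edgeR). NDUFV1, a core subunit, stood at 103 to 218 CPM in the basal A lines (median 172) and 129.6 to 206 CPM in the basal B lines (median 153). Of 20 glutamine genes 0 were called, and 3 were higher and 1 lower without adjustment by edgeR, while DESeq2 called 2 higher and 1 lower and limma-voom 0. GPT2, the mitochondrial alanine aminotransferase, stood at 39.1 to 237 CPM in the basal A lines (median 93.4) and 13.6 to 47.3 CPM in the basal B lines (median 40.4) (log2 fold change 1.54 ± 0.43, adjusted p = 0.0699 by edgeR). GLUL, which encodes glutamine synthetase, stood at 47.4 to 1499 CPM in the basal A lines (median 257) and 3.98 to 201 CPM in the basal B lines (median 92.1), and Hs578T had the lowest level of all lines.

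Single metabolic genes were called. IDH1, the cytosolic isocitrate dehydrogenase, was the only 1 of 31 tested genes in the TCA cycle list. It stood at 156 to 1199 CPM in the basal A lines (median 383) and 58.4 to 194 CPM in the basal B lines (median 109), and HCC1143 was its only basal A line within the basal B range, at 156 CPM (log2 fold change 1.97 ± 0.43, adjusted p = 0.0294 by edgeR). SLC2A3, the high-affinity glucose transporter, was the only 1 of 22 in the glycolysis list and was lower, at 0.0777 to 4.71 CPM in the basal A lines (median 0.721) and 1.20 to 139.6 CPM in the basal B lines (median 64.6). HCC38 and Hs578T were low as well, at 1.20 and 4.50 CPM (log2 fold change -5.35 ± 1.06, adjusted p = 0.0199 by edgeR). In the glycolysis list edgeR gave 1 higher and 6 lower at an unadjusted p under 0.05. DESeq2 called 3 lower and limma-voom 2 lower, and the median log2 fold change of the list was -0.22. ACSL4, the acyl-CoA synthetase for polyunsaturated fatty acids, was the only 1 of 18 in the NRF2, glutathione and ferroptosis list and was lower, at 31.2 to 213 CPM in the basal A lines (median 48.0) and 170.5 to 686 CPM in the basal B lines (median 264). BT-20 at 213 CPM was the only basal A line within the basal B range (log2 fold change -2.07 ± 0.47, adjusted p = 0.0325 by edgeR). Without adjustment edgeR gave 2 higher and 1 lower in the TCA cycle list, and the same in the NRF2 list. DESeq2 called 2 higher in the TCA cycle list, and 1 higher and 1 lower in the NRF2 list. By limma-voom these were 1 higher and 1 lower. Serine and one-carbon genes (14 tested) and lipid synthesis genes (20 tested) had 0 called, and without adjustment edgeR gave 2 higher and 0 lower for serine and 5 higher and 1 lower for lipids. DESeq2 called 2 higher for serine and 2 higher and 1 lower for lipids, and limma-voom called 0 in both lists. PHGDH, the first enzyme of serine synthesis, stood at 139 to 568 CPM in the basal A lines (median 362) and 1.63 to 274 CPM in the basal B lines (median 115), with MDA-MB-231 alone at 1.63 CPM.

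Proliferation genes gave no calls by edgeR. Over all tested genes 2.15% were called, so lists of this size would hold few calls. The absence of calls is therefore no finding about these lists. Of 22 DNA replication and mitosis genes 0 were called, with 1 higher without adjustment by edgeR, and of 13 genes of RB1 and the cyclins 0 were called, with 1 lower without adjustment. DESeq2 called 0 of the first list and 1 lower of the second, and limma-voom 0 of both. MKI67, the proliferation marker, stood at 94.9 to 337 CPM in the basal A lines (median 173) and 80.1 to 158 CPM in the basal B lines (median 93.9) (log2 fold change 0.86 ± 0.31, adjusted p = 0.161 by edgeR). RB1, the retinoblastoma gene, was at 1.18 CPM in MDA-MB-468 of basal A and 10.9 CPM in MDA-MB-436 of basal B, and at 35.4 CPM or more in the other 12 lines. MYC, which the series title names, stood at 57.9 to 119 CPM in the basal A lines (median 91.2) and 34.4 to 200.2 CPM in the basal B lines (median 96.4) (log2 fold change -0.26 ± 0.33, adjusted p = 0.728 by edgeR). The 7 basal A values lay inside the basal B range. Of 11 genes of the MYC and MAX network 0 were called by edgeR or limma-voom, with 1 higher without adjustment by edgeR and 1 by DESeq2. The smallest p belonged to MYCL, a MYC paralog at 1.13 to 18.5 CPM in the basal A lines (median 8.19) and 0.635 to 2.89 CPM in the basal B lines (median 2.11) (adjusted p = 0.0537 by edgeR).

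Markers of other cell types were checked, since matrix genes are also fibroblast markers. Of 7 tested fibroblast markers (9 listed), 4 were called lower: COL1A2, COL3A1, PDGFRB and FAP, a membrane protease of activated fibroblasts. DESeq2 called 6 of them lower and limma-voom 0. The summed level of the 7 was 6.78 to 54.6 CPM in basal A lines (median 11.7) and 6.47 to 3405 CPM in basal B lines (median 108). FAP stood at 1.24 to 5.94 CPM in the basal A lines (median 2.21) and 1.18 to 116 CPM in the basal B lines (median 28.1). The 2 markers LUM and THY1 were not tested for low counts in most lines, and their highest line held 322 and 52 counts in basal A and 6360 and 3087 in basal B. No fibroblast marker was at 0 counts in any line. Of the blood markers 2 of 6 were tested and 0 called (0 at an unadjusted p under 0.05 by edgeR, 0 by DESeq2 and limma-voom), with a summed level of 2.06 to 36.9 CPM in basal A lines and 0.719 to 29.5 CPM in basal B lines. HBB was at 0 counts in 1 line of each class and CD79A in 3 basal A and 2 basal B lines. Of the endothelial markers 4 of 6 were tested and 0 called (1 lower at an unadjusted p under 0.05 by edgeR, 0 by DESeq2 and limma-voom), with a summed level of 2.74 to 18.4 CPM in basal A lines and 1.86 to 26.8 CPM in basal B lines. CDH5, which was too low in most lines to be tested and is not in that sum, held 2280 counts in its highest basal A line and 18 in its highest basal B line. TEK was at 0 counts in 1 basal B line and CLDN5 in 1 basal A and 3 basal B lines. The part of other cell types in the matrix differences was not tested.

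HCC38 stood apart from the other basal B lines. In a principal component analysis of the 2000 most variable genes, component 1 held 30.8% of the variance. The basal A lines lay between -97.0 (HCC70) and -18.4 (HCC1187), and the basal B lines between 42.6 (MDA-MB-231) and 77.5 (Hs578T) except HCC38 at -14.5. Each line was then placed with genes called in the other 13 lines, by counting the genes at which its log2 CPM was nearer the basal A mean than the basal B mean. HCC70 was nearer basal A for 153 of 170 genes (90.0%), MDA-MB-468 for 85.3%, HCC1937 for 77.2%, BT-20 for 75.0%, HCC1806 for 65.6% and HCC1187 for 60.8%. HCC1143 was intermediate, with 283 of 562 genes (50.4%). Of the basal B lines, Hs578T was nearer basal A for 17 of 162 genes (10.5%), MDA-MB-436 for 19.0%, BT-549 for 19.7%, MDA-MB-157 for 24.6%, MDA-MB-231 for 25.0% and HCC1395 for 27.9%. HCC38 was nearer basal A for 552 of 813 genes (67.9%), a share between those of HCC1806 and BT-20. By direction, HCC38 was on the basal A side for 70.5% of 511 genes higher in basal A and 63.6% of 302 genes lower in basal A.

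**Figure D4:**
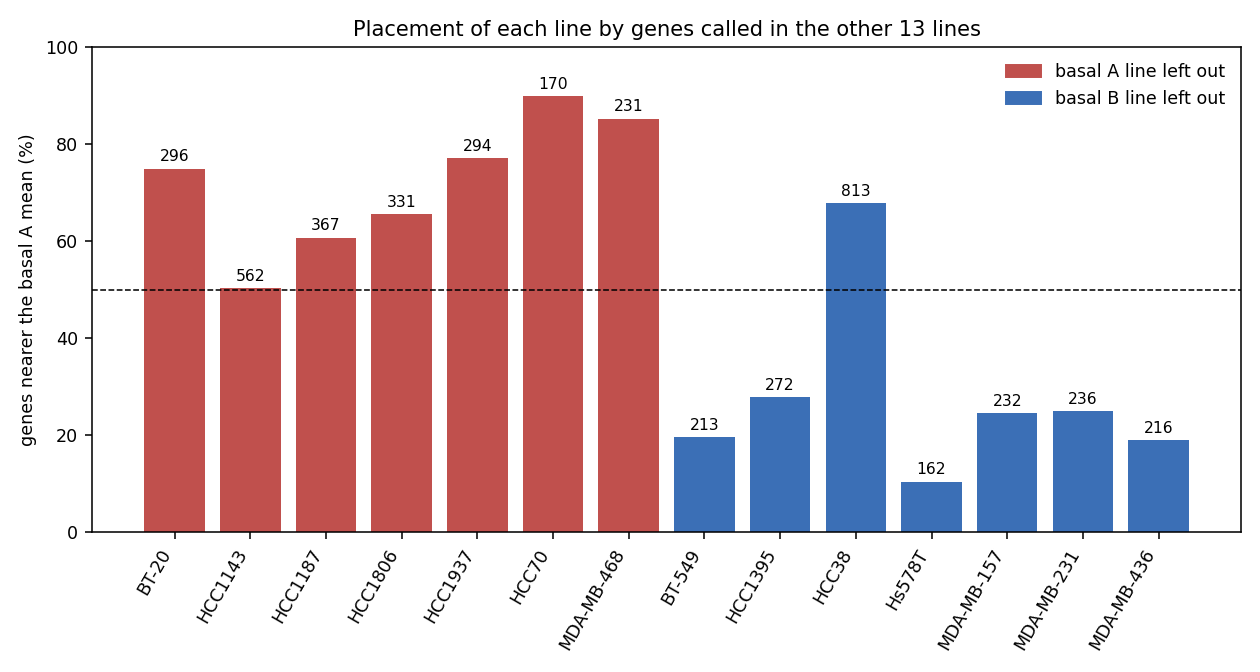
Share of genes at which a line lay nearer the basal A mean, for genes called without that line, with basal A lines on the left and basal B lines on the right. Numbers above the bars are the genes called in the other 13 lines, and the dashed line marks 50%. HCC38 at 67.9% was the only basal B line above 27.9%.

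Without HCC38, edgeR called 522 genes higher and 313 lower of 19428 tested (4.3%, with 2.69% higher and 1.61% lower), including 222 of the 230 and 178 of the 180 genes called with it. Junction genes were then called in 15 of 19 members, desmosome genes in 9 of 12, keratins in 7 of 13, epithelial regulators in 11 of 14, surface proteins in 15 of 17, splicing regulators in 4 of 10, lineage factors in 5 of 16 and hemidesmosome genes in 1 of 10, all higher. EMT factors were called in 4 of 9, collagens in 5 of 14 and other matrix genes in 7 of 22 as lower, with 1 matrix gene higher. Complex I and glutamine genes had 0 calls by edgeR in both fits. HCC38 was singled out by its levels in these same data, so the counts without it are a description. Leaving out any other basal B line lowered the number of genes called higher, to between 87 without Hs578T and 135 without HCC1395. Of the basal A lines, leaving out HCC70 lowered the counts most, to 96 higher and 81 lower, and leaving out HCC1143 raised them to 323 higher and 262 lower.

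**Figure D5:**
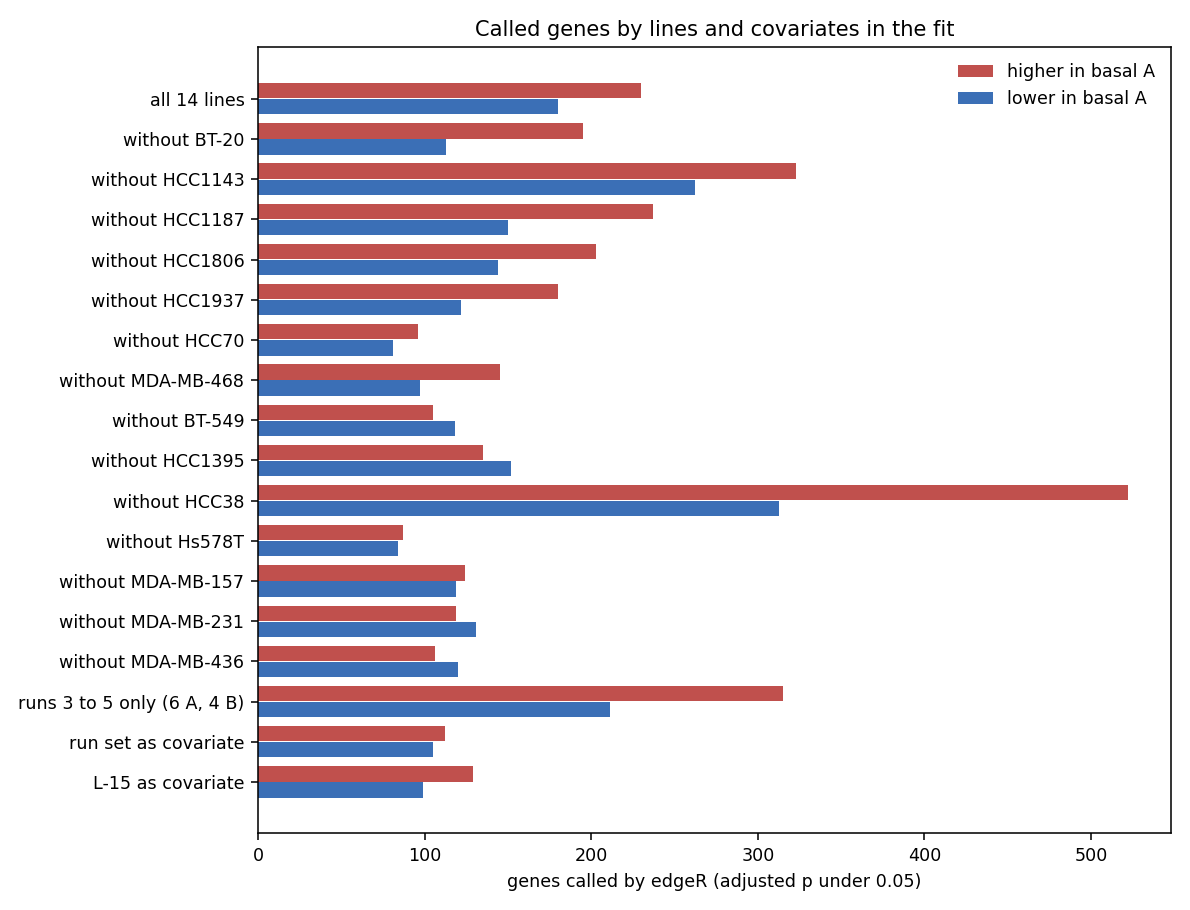
Number of genes called higher (red, upper bar) and lower (blue, lower bar) in basal A by edgeR, with all 14 lines, without each line in turn, in the lines of runs 3 to 5, and with run set or L-15 medium as a covariate. The counts were largest without HCC38, at 522 and 313.

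HCC38 and HCC1143, the lines with the least typical placement, were both sequenced in runs 1 and 2. Hs578T (10.5% of genes nearer basal A) and MDA-MB-231 (25.0%) were also in these runs, while HCC1187 (60.8%) was in runs 3 to 5. A part of the run in the placement was not tested. Within runs 3 to 5 (6 basal A against 4 basal B lines), edgeR called 315 genes higher and 211 lower, of which 116 and 115 were among the 230 and 180. Within runs 1 and 2, with 1 basal A against 3 basal B lines, 0 were called, although 742 genes were higher and 607 lower at an unadjusted p under 0.05, and no other tool was run there. With run set as a covariate 112 were higher and 105 lower, of which 72 and 83 were among the 230 and 180. Within the 8 lines in RPMI (5 basal A against 3 basal B, HCC38 among them) 1 was higher and 0 lower by edgeR, with 844 and 693 at an unadjusted p under 0.05. With L-15 medium in the model the counts were 129 and 99, of which 102 and 84 were among the 230 and 180. The genes were called on the 14 lines that include each of these subsets, so agreement in sign was favoured in advance and is no independent check. All 230 genes called higher had a positive log2 fold change in runs 3 to 5 and in RPMI. Genes called lower had a negative one for 180 of 180 in runs 3 to 5 and 178 of 179 tested in RPMI. In runs 1 and 2 these numbers were 196 of 226 and 179 of 180. Of the 70 named genes called, 23 lost the call with run set in the model, 22 with L-15 medium in the model and 14 by limma-voom. Named genes were chosen by small p, many also by no overlap, so these losses do not stand for all called genes.

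Leaving out each line in turn, 47 of the 70 named calls held every time, and 39 also held with run set, with L-15 medium and by limma-voom, among them GRHL1, ELF3, NECTIN1, NECTIN4, ESR1, ZEB1, ZEB2, EMP3, ACTA2, FBN1, CYR61 and MIR100HG. The other 23 calls were lost without at least 1 line. Without HCC70 alone, COL8A1 and FAP lost theirs, and without Hs578T alone, TMEM51-AS1. Calls that ended on removal of any of 4 to 6 lines were those of PROCR, COL1A2, FN1, PKP1, PRRX1, CXCL2, IDH1 and ACSL4. Calls that ended on removal of any of 7 to 11 lines were those of PDGFRB, FBLN1, FGFR3, LSR, PKP3, PERP, KRT16, COL3A1, PROM1, GATA3, MERTK and CXCL3.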

How the data were processed

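The authors deposited raw counts per gene for 45 libraries of total RNA, depleted of ribosomal RNA and prepared with ScriptSeq v2, per the labels' protocols. The submitters' processing notes name bcl2fastq 2.20.0.422, Trimmomatic, STAR with GRCh38.p12, and featureCounts. Not given in the sources used here are the strand setting, the annotation release and the treatment of reads with several alignments. Of 64485 gene identifiers, 58275 (90.4%) matched GENCODE 29.

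Here, the counts of 3 libraries were summed per line, and 7 basal A lines were compared with 7 basal B lines by the edgeR 4.0.16 quasi-likelihood F test (R 4.3.3, TMM scaling, filterByExpr with minimum counts of 10 per line and 15 in total). Calls used a Benjamini-Hochberg adjusted p under 0.05 over all 19036 genes, two-sided. The SE is the absolute log2 fold change divided by the square root of F. CPM carry no pseudocount. The test was checked on simulated counts. DESeq2 1.42.0 and limma 3.58.1 were alternatives.

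Lines, 36 gene lists and tests were chosen with earlier results of these data known. Named genes are, per direction, the 12 protein-coding and 3 long noncoding genes of smallest p with a log2 fold change of 1 or more in size, no overlap and a mean of at least 10 CPM (2 CPM for noncoding) in the higher class. To these come the 3 members of smallest p of every list, CDH1, EPCAM, VIM, ZEB1, KRT5, EGFR, ERBB2, ESR1 and MYC. A few of these genes are not reported here. Other names were chosen after their values were seen. XIST and genes of Y were never named.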

Additional observations from a re-analysis of the deposited data

Results flagged for a closer look

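For the named genes reported here, the highest and the lowest line of each class was set against the other 6 lines on the log2 CPM scale. Of 258 groups of 7 lines, 29 held a line whose gap to its neighbour was, as a share of the range, above Dixon's 95% critical value for 7 lines, and chance flags about 1 in 20 groups.

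In basal A, HCC1187 lay below its class for TIMP1 (0.232 CPM), EPCAM (150.0 CPM) and NDUFS6, a complex I subunit (37.8 CPM). It lay above its class for CENPF, a kinetochore protein (1439 CPM), and for MIR155HG (1.28 CPM). HCC1143 was highest for COL8A1 (4.06 CPM) and CXCL8 (68.8 CPM). BT-20 was lowest for GRHL3 (0.854 CPM) and CXCL3 (0.101 CPM). HCC70 was highest for CCNE2, a cyclin of S-phase entry (489.9 CPM), and lowest for MERTK (0.505 CPM). MDA-MB-468 was highest for PSPH, the last enzyme of serine synthesis (514 CPM).

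In basal B, HCC38 was the line in 10 of the 29 cases. It was highest for CDH1 (264 CPM), ESRP1 (162 CPM), PKP3 (35.0 CPM), MIR205HG (34.7 CPM), PROM1 (12.3 CPM), NECTIN4 (7.33 CPM) and AC010503.4 (1.15 CPM), and lowest for VIM (493 CPM), PNMA2 (8.39 CPM) and ZEB1 (6.09 CPM). Hs578T was highest for FBN1 (666 CPM) and lowest for GLUL (3.98 CPM) and MYCL (0.635 CPM). MDA-MB-157 was lowest for FADS1, a fatty acid desaturase (60.4 CPM). MDA-MB-231 was highest for CD74 (32.8 CPM) and lowest for PHGDH (1.63 CPM). BT-549 was lowest for MXD1, a MYC antagonist (13.5 CPM).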

How the results depend on the processing

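Against 230 genes higher and 180 lower in basal A by edgeR, DESeq2 called 971 and 741, and limma-voom on line sums 323 and 176. Of the 230 and 180, DESeq2 also called 230 and 179, and limma-voom 162 and 116. Calls rose to 365 and 239 with no filter on low counts, which moved the median of all genes by 0.12 on the log2 scale, and were 92 and 70 with a minimum count of 100, where fewer genes were tested. With run set as a covariate the counts were 112 and 105, with L-15 as a covariate 129 and 99, in runs 1 and 2 alone 0 and 0, and in RPMI alone 1 and 0, these last settings with 4 and 8 lines. Leaving out 1 line gave 87 to 522 higher and 81 to 313 lower genes, with the highest counts without HCC38 and the fewest without Hs578T (higher) and HCC70 (lower). Leaving out replicate 1, 2 or 3 of every line gave 182 to 188 higher and 146 to 173 lower. Without the Hs578T library of lowest depth, an alternative chosen after seeing the data, the counts were 210 and 173. Of the 70 named calls, 0 to 21 were lost without 1 line (0 without HCC38, 21 without HCC70), 23 with run set and 22 with L-15 as a covariate, and 14 each by limma-voom and in runs 3 to 5. In RPMI and in runs 1 and 2 none held, but runs 1 and 2 hold 1 basal A line and such small fits say nothing about stability. There CLDN8 had log2 fold changes of 6.10 in RPMI and 5.60 in runs 1 and 2 (6.61 with all lines). PNMA2 had -6.05 and -6.35 (-6.17 with all lines). Other named genes moved far in runs 1 and 2. TSPAN13 had 3.38 in RPMI and 0.98 in runs 1 and 2 (3.52 with all lines). MYO1D had 3.42 and 1.18 (3.56 with all lines), and ERP27 6.61 and 2.62 (6.02 with all lines). GATA3 (-0.86) and KRT5 (-0.38) had the opposite sign in runs 1 and 2 and PDGFRB (0.23) in RPMI, and the cause was not tested. No other named call changed sign.

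limma on the 42 libraries, with line as a random effect, called 718 higher and 540 lower with no replicate block and 672 and 529 with the replicate block. In the 10 lines of runs 3 to 5 the replicate number is also the run, so each line sum holds 1 library of each run. Between classes, libraries with the same number had a mean r of 0.0487 (-0.212 to 0.290), against -0.0242 for other numbers, and within runs 3 to 5 a mean r of 0.0817 (-0.234 to 0.459), against -0.0408. Since some pairs were negative, pairing was not used.

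The promoter alternative was not run, since promoters were at hand for under 80% of the called genes. Limits are 7 lines per class, classes taken from publication, media and runs unequal between classes, and replicate libraries whose separate culture the labels do not state. Genes with a log2 fold change of 2 were mostly missed on simulated counts, whose spread was estimated without regard to class.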

Other observations

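The following genes lie outside the lists and were chosen after their values were seen. Several encode secreted proteins of mucosal and glandular epithelium and were called higher in basal A by edgeR. LCN2, an iron-binding antimicrobial protein, stood at 0.930 to 243 CPM in the basal A lines (median 28.3) and 0 to 1.49 CPM in the basal B lines (median 0.291) (log2 fold change 7.08 ± 1.18, adjusted p = 0.0114 by edgeR), with HCC1187 at 0.930 CPM below MDA-MB-436. SLPI, an inhibitor of leukocyte proteases, stood at 8.83 to 750.0 CPM in the basal A lines (median 170.0) and 0.462 to 36.0 CPM in the basal B lines (median 1.59), and HCC38 was the highest basal B line at 36.0 CPM. AGR2, a protein disulfide isomerase of secretory cells, was highest in HCC1806 and HCC70 (265 and 323 CPM). KLK8, a kallikrein protease, shared the smallest adjusted p of 0.00507 by edgeR and did not overlap, and reached 8.08 CPM. Of 7 tested kallikreins it was the 1 called, beside 1.21% of all tested genes called higher. Mucosal keratins outside the keratin list were called too: KRT4 stood at 0.232 to 495 CPM in the basal A lines (median 163) and 0.181 to 0.815 CPM in the basal B lines (median 0.349), and KRT13 reached 1748 CPM in HCC1806.

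Of 4 tested ephrin-A ligands, EFNA1, EFNA3 and EFNA4 were called higher in basal A by edgeR. They lie close together on chromosome 1. EFNA1 stood at 8.39 to 65.2 CPM in the basal A lines (median 43.9) and 0.635 to 8.96 CPM in the basal B lines (median 3.65) (log2 fold change 3.12 ± 0.59, adjusted p = 0.0158 by edgeR). Of 7 tested EPHA receptors, EPHA5 was called lower, at 0.660 to 3.60 CPM in the basal A lines (median 2.21) and 2.40 to 33.0 CPM in the basal B lines (median 16.8) (log2 fold change -3.08 ± 0.59, adjusted p = 0.0167 by edgeR). Called lower were also RGS4 and RGS17 of 21 tested RGS genes, which switch off G proteins, and GNG2 and GNG11 of 6 tested G protein gamma subunits. Over all tested genes 1.21% were called higher and 0.946% lower. These families were picked after their calls were seen, so the counts are no result about a family. RGS4 stood at 0.350 to 1.89 CPM in the basal A lines (median 0.591) and 0.550 to 54.0 CPM in the basal B lines (median 20.6), and HCC1395 at 0.550 CPM was the lowest basal B line. The fibroblast growth factor FGF1 stood at 0.337 to 1.50 CPM in the basal A lines (median 0.872) and 1.73 to 22.1 CPM in the basal B lines (median 5.12) and did not overlap. IL6ST, the shared signalling chain of the interleukin-6 family, was lower at 177 to 364 CPM in the basal A lines (median 212) and 307 to 1348 CPM in the basal B lines (median 695) (log2 fold change -1.61 ± 0.30, adjusted p = 0.0154 by edgeR), and the cytokine IL11, which signals through it, was high in MDA-MB-157 and MDA-MB-231 (130.3 and 58.2 CPM). HES1, a target of Notch, was higher without overlap at 52.9 to 186 CPM in the basal A lines (median 99.6) and 12.4 to 49.4 CPM in the basal B lines (median 38.9), and NRARP, a Notch feedback gene, was higher with overlap at 1.39 to 26.1 CPM in the basal A lines (median 5.43) and 0.115 to 2.44 CPM in the basal B lines (median 1.04). TMCC1 was called higher and TMCC1-AS1 lower (log2 fold changes 1.19 ± 0.30 and -2.10 ± 0.52), and reads of this antisense pair cannot be told apart where the genes overlap.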
